A study of Sus scrofa with 20 samples.

Results

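Testis RNA of 6 Duroc boars was compared with that of 4 Landrace boars, all 10 from the groups with a high sperm DNA fragmentation index (DFI), the share of sperm whose DNA opens up under acid. These are 10 of the 20 boars of the series, and the members are the 14786 genes, of the 21306 listed for both breeds, that exceeded 1 CPM, counts scaled to the library total, in at least 5 of the 10 libraries. The groups were Norsvin Landrace with high DFI (5.58% to 8.04%) and Norsvin Duroc with high DFI (4.13% to 5.63%), with 1 library per boar and DFI as the labels give it, which differs slightly from the study's own list for some Landrace boars. All were artificial insemination boars on one diet, and tissue from the middle of a testicle was taken at slaughter. The other 10 boars, 5 Landrace and 5 Duroc with low DFI, share no boar with them and were compared in the same way. The age of each boar is not given in the sources used here. The deposited files of all 4 Landrace boars with high DFI carried 2-digit numbers and those of all 6 Duroc boars 6-digit numbers, so that at high DFI the breed and the number series cannot be told apart, and what the numbers stand for is not given in the sources used here.

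The testis makes sperm in seminiferous tubules, where Sertoli cells nurse germ cells through mitosis, meiosis and the reshaping of spermatids, while Leydig cells between the tubules make steroids from cholesterol. Duroc pigs are coloured and used mainly as terminal sires, whereas Landrace pigs are white and used in maternal lines, and both have been bred apart for many generations. Boar testis is known for a very large steroid output. The reads were placed on a reference genome that was made from a Duroc sow, and whether reads of both breeds map to it equally well was not tested.

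Total counts were 18086448 to 44166529 in the Landrace and 35090476 to 44655674 in the Duroc libraries, and the Landrace boar with the lowest total had 2607 genes at the lowest value a library holds, 1. All 10 libraries held abundant spermatid transcripts, with a summed level of the 36 tested spermatid genes of 20900 to 26200 CPM in Landrace and 18900 to 25400 CPM in Duroc (CPM here and below were scaled with the trimmed mean of M values). In bulk tissue, fewer cells of a type and less RNA per cell cannot be told apart. A pair of boars, picked after the values were seen, had values apart from their groups. Landrace high 2 had 18000 CPM of Leydig cell steroidogenesis genes against 7030 to 10930 CPM in the other 3 Landrace boars, and 544 CPM of interferon-stimulated genes against 231 to 308 CPM. Duroc high 4 had 4160 CPM of Sertoli cell markers, 3250 CPM of it from the gene CLU, against 2410 to 2732 CPM in the other 5 Duroc boars. Without both boars, 459 genes were called in place of 546. DFI itself fell by 2.06 points from Landrace to Duroc (p = 0.0190 from exact permutation of the boars, two-sided, adjusted p = 0.0857 over 9 single values, where 0.00952 is the lowest raw value possible).

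Of the 14786 genes tested, 546 (3.69%) differed between the breeds at an adjusted p under 0.05 (edgeR quasi-likelihood test with Benjamini-Hochberg adjustment). Of these, 285 (1.93% of all tested) were higher in Duroc and 261 (1.77%) were higher in Landrace. With libraries scaled to their total counts alone, 64.1% of the calls were higher in Duroc in place of 52.2%. The median size of the log2 fold change of the called genes was 0.65, and 141 of them differed more than 2-fold, 69 higher in Duroc and 72 higher in Landrace. The breeds did not overlap in 481 of the 546 called genes, against 1161 of all genes tested (7.85%). With DFI as a covariate in the fit the count fell to 35, 31 of them among the 546, and all 546 kept their direction. On the log2 scale all fold changes below are Duroc over Landrace, and a positive value is higher in Duroc.

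**Figure D1:**
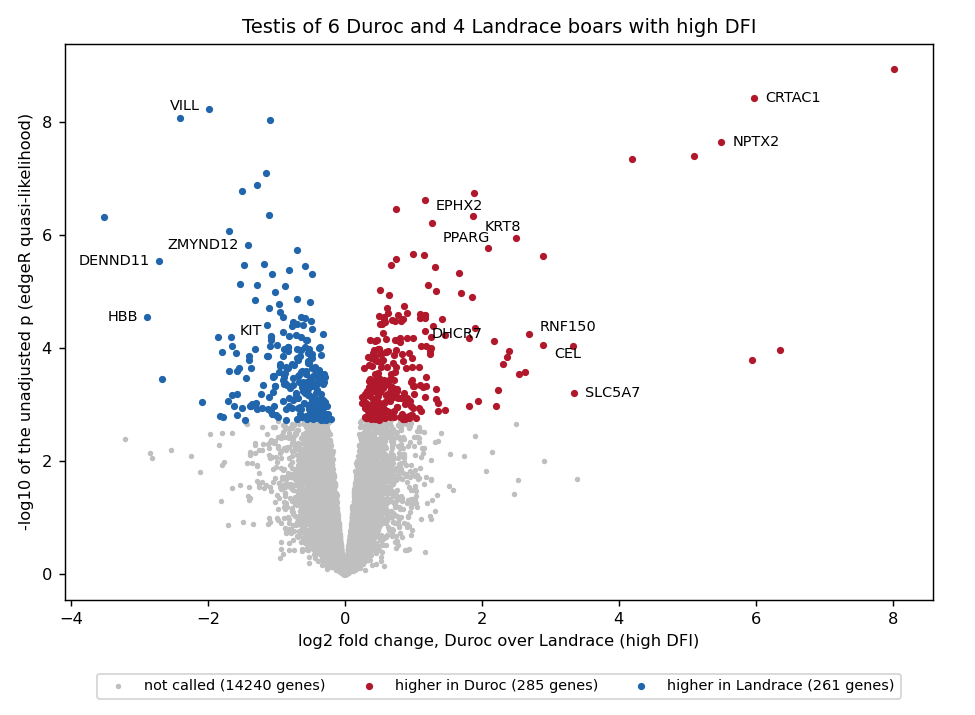
Each point is 1 of the 14786 tested genes, with the log2 fold change of Duroc over Landrace on the horizontal axis and −log10 of the unadjusted quasi-likelihood p on the vertical axis. Red points are the 285 genes called higher in Duroc and blue points the 261 called higher in Landrace; NPTX2 and CRTAC1 lie far to the right and VILL is the topmost blue point.

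NPTX2, a secreted pentraxin best known from synapses, was nearly silent in Landrace and expressed in every Duroc boar. Its level was 0.166, 0.905, 0.620 and 1.53 CPM in the 4 Landrace boars, and 19.9, 41.5 and 48.7 CPM in the lowest, the median and the highest Duroc boar. No Landrace boar came near the Duroc range, and the log2 fold change was 5.5 ± 0.41 (SE, adjusted p = 5.42e-05). The low DFI boars showed the same split, with 0.353 to 0.520 CPM in Landrace and 26.1 to 58.8 CPM in Duroc, so that NPTX2 separated all 20 boars by breed. It also passed with DFI as a covariate (adjusted p = 0.00266), in the fit of all 20 boars with the number series as a term (0.00822) and among low DFI boars with 6-digit numbers (2.37e-05).

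CRTAC1, a secreted protein of cartilage matrix, had the smallest p of the genes with a symbol. The Landrace boars were at 0.110, 0.0232, 0.0919 and 0.0511 CPM, which is 1 to 4 counts per library, and the Duroc boars at 3.14, 3.80 and 6.17 CPM (lowest, median, highest; adjusted p = 2.66e-05). At counts this low the fitted log2 fold change of 5.98 depends on the prior count of the fit. The pattern was not one of breed alone: among the low DFI Landrace boars 2 reached 2.25 and 2.86 CPM, within the 1.98 to 5.41 CPM of the low DFI Duroc boars, while the other 3 were at 0.0885 to 0.177 CPM, and the low DFI comparison did not pass (log2 fold change 1.83, adjusted p = 0.240). ENSSSCG00000026089, which has no symbol and was chosen after its values were seen, followed CRTAC1 from boar to boar. It held 23 to 36 counts in the 4 Landrace boars with high DFI and 414 to 1078 counts in the 6 Duroc boars (log2 fold change 4.20, adjusted p = 8.27e-05), and the same 2 low DFI Landrace boars that expressed CRTAC1 held 427 and 529 counts of it.

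Other genes without a symbol were at or near the lowest listed value in every Landrace boar. These genes, like CRTAC1, passed the filter of 1 CPM in at least 5 libraries through the Duroc boars alone. The Duroc boars would also alone have carried NPTX2 and, described below, SLC5A7 and CEL past this filter, with some Landrace boars below 1 CPM. The 4 Landrace boars are too few for a gene expressed in Landrace alone to pass, so the reverse pattern could not be tested. ENSSSCG00000024011, with the smallest p of all genes (adjusted p = 1.70e-05), was at the lowest listed value of 1 in all 4 Landrace boars and held 248 to 437 counts in the 6 Duroc boars, at least 84.6-fold higher against a floor of 3 counts per library. The gene was not a fixed breed mark either, since 1 of the 5 Duroc boars with low DFI was also at 1 while the others held 233 to 626 counts. ENSSSCG00000006147 held 1, 1, 1 and 2 counts in the Landrace boars and 27 to 76 counts in the Duroc boars (adjusted p = 8.27e-05), while 1 low DFI Duroc boar held 2 counts. ENSSSCG00000023383, chosen after its values were seen, held 1 to 3 counts in Landrace and 78 to 177 counts in 5 Duroc boars, but 2 counts in Duroc high 4, and 2 in 1 of the low DFI Duroc boars (adjusted p = 0.0133 at high DFI). Across all 9 Landrace boars none of these 3 genes exceeded 4 counts.

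PPARG and EPHX2 were higher in every Duroc boar than in any Landrace boar at both DFI levels. PPARG, a nuclear receptor for fatty acids, was at 2.15, 2.37, 1.98 and 2.33 CPM against 4.70, 5.16 and 6.54 CPM (1.28 ± 0.13, adjusted p = 0.000503). EPHX2, the soluble epoxide hydrolase, was at 29.8, 40.2, 31.0 and 37.3 CPM against 66.5, 76.8 and 90.3 CPM (1.17 ± 0.11, adjusted p = 0.000274). The Landrace boars lay close together for PPARG and were more spread for EPHX2.

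DHCR7, which carries out the last step of cholesterol synthesis, was at 3.64, 3.06, 2.83 and 3.30 CPM in Landrace and at 5.31, 14.5 and 24.4 CPM in Duroc (log2 fold change 2.18 ± 0.36, adjusted p = 0.00969). Here the Duroc boars varied widely while the Landrace boars did not, and no boar overlapped. It was the 1 called gene of 22 tested genes of cholesterol synthesis and uptake, against 3.69% called of all tested genes, and limma called 0 of the 22. The other 21 genes of that list included 16 with lower values in Duroc, and the median log2 fold change of the list was −0.17 against −0.01 over all genes tested. Without Landrace high 2 and Duroc high 4, 3 genes of the list were called.

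Several other genes with large differences varied widely among the boars of a breed. RNF150, a RING finger protein, was at 0.607, 2.46, 1.47 and 1.18 CPM in Landrace and at 4.18, 8.79 and 16.3 CPM in Duroc (log2 fold change 2.69 ± 0.44, adjusted p = 0.00899). PLA2R1, a receptor of secreted phospholipase A2, was at 6.41, 3.32, 1.70 and 1.25 CPM against 8.30, 13.2 and 24.8 CPM (2.24 ± 0.48, adjusted p = 0.0264). SLC5A7, the choline transporter of cholinergic neurons, was at 0.166, 0.719, 0.345 and 1.38 CPM against 1.24, 5.72 and 14 CPM, with a slight overlap (3.34 ± 0.72, adjusted p = 0.0286). The call of PLA2R1 was lost without Landrace high 2, 3 or 4 or Duroc high 1 or 6 (adjusted p 0.0523 to 0.0640), and that of SLC5A7 without Landrace high 1, 2 or 3 or Duroc high 3 or 6 (0.0511 to 0.0701).

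CEL, the bile salt-dependent lipase, was higher in Duroc at high DFI. Its level was 0.828, 1.04, 0.0689 and 1.36 CPM in the 4 Landrace boars and 3.98, 6.22 and 7.86 CPM in Duroc (log2 fold change 2.89 ± 0.49, adjusted p = 0.0108). Among the low DFI Landrace boars, the 2 with 2-digit numbers were at 0.177 and 0.0946 CPM and the 3 with 6-digit numbers at 2.76, 2.10 and 1.30 CPM, a difference that did not pass (adjusted p = 0.248). The low DFI Duroc boars were at 3.92 to 7.29 CPM, so that CEL separated all 20 boars by breed. In the fit of all 20 boars with the number series the breed difference of CEL turned to −1.01 (adjusted p = 0.731), while among low DFI boars with 6-digit numbers alone it was 1.47 (adjusted p = 0.0452).

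KRT8, a keratin of simple epithelia, was at 8.50, 6.78, 10.1 and 9.31 CPM in Landrace and at 23.1, 34.2 and 38.7 CPM in Duroc (log2 fold change 1.88 ± 0.19, adjusted p = 0.000409). The breeds were far apart at high DFI, while at low DFI the Duroc boars ranged from 9.11 to 39.4 CPM and reached into the Landrace range. The test of the difference between the DFI levels did not pass for KRT8 (edgeR quasi-likelihood, unadjusted p = 0.335). Smaller differences with tight groups were found for APBB1, an adaptor of the amyloid precursor protein, with 15.1, 23.6, 20.4 and 21.1 CPM against 35.1 to 42.9 CPM in Duroc (0.999 ± 0.12, adjusted p = 0.00130). MCM3AP, a scaffold of messenger RNA export, was at 48.2 to 61.2 CPM against 82.6 to 101 CPM (0.75 ± 0.09, adjusted p = 0.00146), and RCC1L, a mitochondrial protein, at 21.4 to 26.7 CPM against 36.6 to 42.3 CPM (0.67 ± 0.08, adjusted p = 0.00160). In none of these 4 genes did a Landrace boar with high DFI reach the lowest Duroc boar.

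The genes that passed in the high DFI boars, in the fit with the number series and among low DFI boars with 6-digit numbers were 21, 11 of them higher in Duroc and 10 higher in Landrace. PDE7B, a phosphodiesterase that breaks down cyclic AMP, is one of them, with 14.7, 12.5, 8 and 9.38 CPM in Landrace and 23.9, 27.6 and 30.3 CPM in Duroc (log2 fold change 1.31 ± 0.16, adjusted p = 0.00164). In the fit with the number series the difference of PDE7B was 2.25 (adjusted p = 9.11e-05). DIPK1B was at 18.8 to 27.2 CPM against 37.9 to 53.2 CPM (0.91, adjusted p = 0.00607), FCGR1A, the high-affinity receptor of immunoglobulin G, at 52.3 to 72.2 CPM against 89.7 to 126 CPM (0.78, adjusted p = 0.00620), and RPAP3, a cofactor of chaperones that assemble RNA polymerase, at 27.6 to 34.8 CPM against 41.5 to 46.4 CPM (0.50, adjusted p = 0.00620). STIL, needed for centriole duplication, was at 9.86 to 15.5 CPM against 19.2 to 23.6 CPM (0.76, adjusted p = 0.00950). KIF19, a kinesin of cilia, had the smallest of these differences (0.39, adjusted p = 0.0422), and its call was lost on leaving out any boar but Landrace high 3 (adjusted p 0.0551 to 0.0808).

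VILL, a villin-like protein of the actin-binding villin family, had the smallest p of the genes with a symbol that were higher in Landrace. Its level was 23.3, 19.2, 26.8 and 20 CPM in Landrace and 4.99, 5.32 and 7.27 CPM in Duroc, 3.96-fold lower in Duroc on the fitted scale (log2 fold change −1.99 ± 0.13, adjusted p = 2.66e-05). The breeds did not overlap at high DFI, although 1 low DFI Duroc boar reached 15.5 CPM, inside the 13.8 to 34.1 CPM of the low DFI Landrace boars. The fit with the number series gave VILL a difference of −2.77 (adjusted p = 0.0326). Among low DFI boars with 6-digit numbers alone the difference was −1.88 and did not pass (adjusted p = 0.0721).

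HBB, the beta chain of adult haemoglobin and the 1 tested red blood cell gene, was lower in Duroc. The Landrace boars were at 15.8, 19.8, 15.1 and 3.89 CPM and the Duroc boars at 0.941, 1.53 and 3.40 CPM (log2 fold change −2.89 ± 0.43, adjusted p = 0.00620). Landrace high 4 lay close to the highest Duroc boar, and the others were well above it. At low DFI the Landrace boars ranged from 1.73 to 17.7 CPM and the Duroc boars from 0.828 to 1.99 CPM (−2.61, adjusted p = 0.0193). Globin genes form a family of close copies, so reads may have been shared among them. The other red blood cell genes of the list were not analysed here, and the part of blood left in the tissue was not tested.

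KIT, the receptor of stem cell factor on spermatogonia, mast cells and pigment cells, whose duplication is known from white pigs such as Landrace, was higher in Landrace. It was at 26.1, 29.4, 47.2 and 26.6 CPM in Landrace and at 12.9, 14.5 and 19.3 CPM in Duroc (log2 fold change −1.08 ± 0.18, adjusted p = 0.00916). At low DFI the ranges were 25.9 to 48.7 CPM and 12.2 to 19.3 CPM, so that KIT separated all 20 boars. With the number series in the fit the difference was −0.49 (adjusted p = 0.605), and among low DFI Landrace boars the log2 difference of KIT between 6-digit and 2-digit numbers was −0.59 and did not pass (unadjusted p = 0.00722, adjusted p = 0.443).

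**Figure D2:**
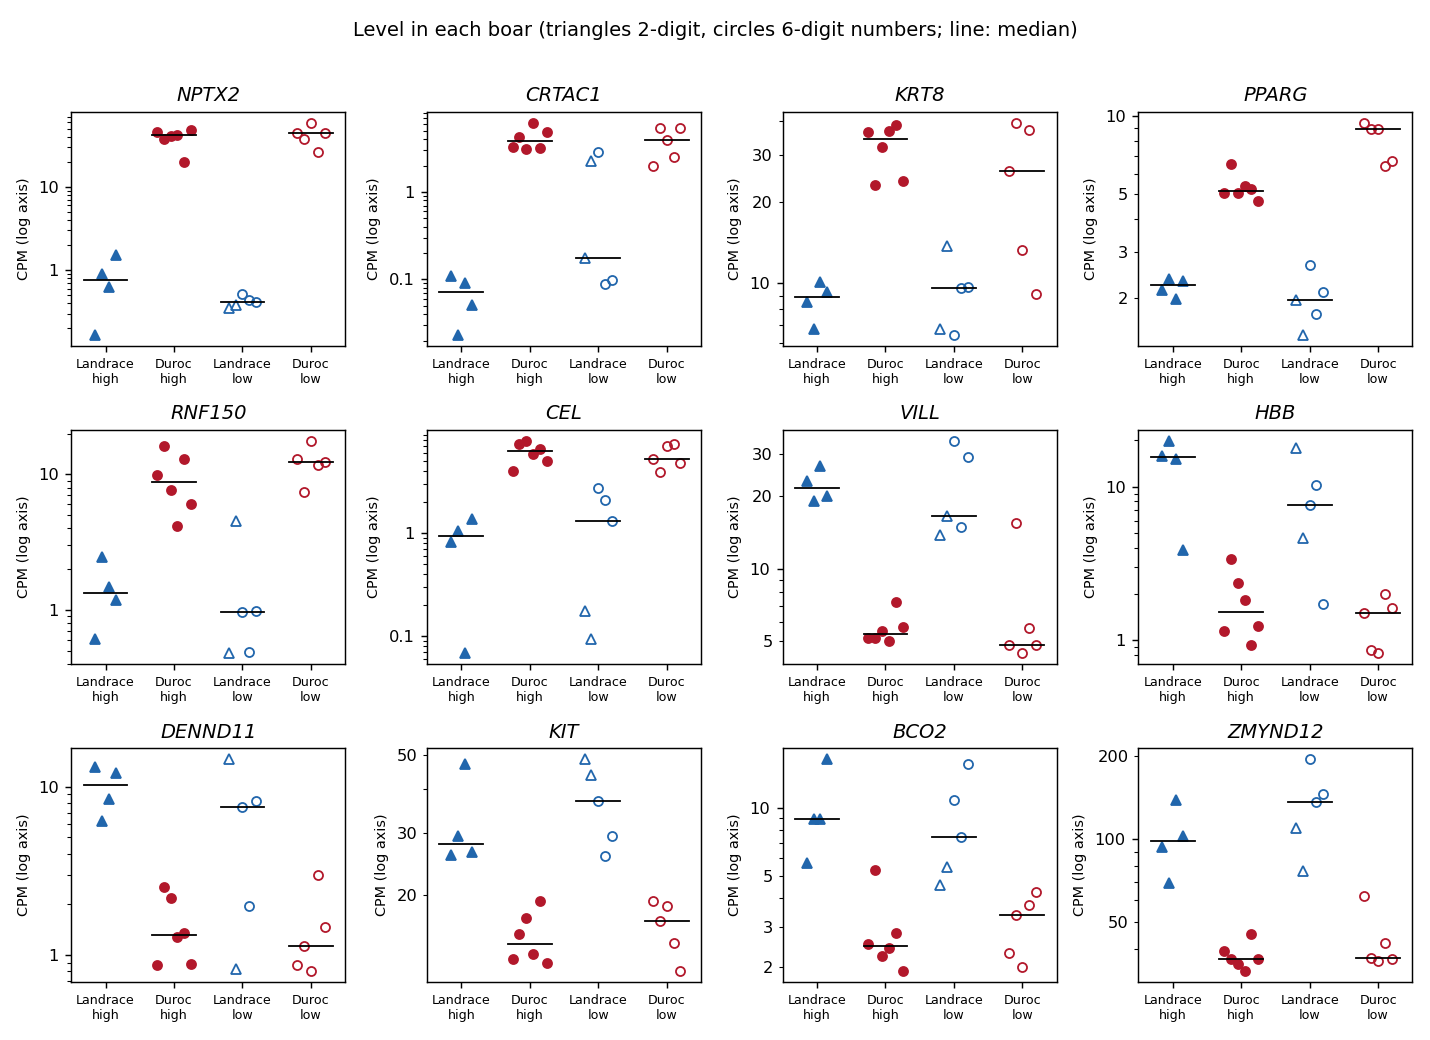
Level of 12 genes in each of the 20 boars, in CPM on log axes; filled symbols are high and open symbols low DFI boars, blue Landrace and red Duroc, triangles 2-digit and circles 6-digit file numbers, and the line is the group median. NPTX2, PPARG, CEL, KIT and ZMYND12 separate the breeds in all 20 boars, CRTAC1 is near the Duroc level in 2 low DFI Landrace boars, and the 3 lowest values of CEL are from Landrace boars with 2-digit numbers.

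MYBPC1, ENO3 and ENO4 were higher in every Landrace boar than in any Duroc boar at both DFI levels. MYBPC1, a myosin-binding protein of slow muscle, was at 16.6, 16.0, 23.1 and 24.0 CPM in Landrace and at 5.09, 6.07 and 9.45 CPM in Duroc (log2 fold change −1.53 ± 0.20, adjusted p = 0.00281). Enolases, the glycolytic enzymes, included ENO3 of muscle with 129 to 235 CPM against 74.8 to 92.6 CPM (−1.02 ± 0.14, adjusted p = 0.00342), and ENO4 of sperm with 53.8 to 76.6 CPM against 30.1 to 40.2 CPM (−0.87 ± 0.12, adjusted p = 0.00287). BCO2, the mitochondrial enzyme that cleaves carotenoids, was at 5.74, 8.94, 8.89 and 16.4 CPM against 1.91, 2.47 and 5.33 CPM (−1.80 ± 0.32, adjusted p = 0.0117). ACSM5, a medium-chain acyl-CoA synthetase, overlapped between the breeds (−1.65, adjusted p = 0.0293), and its call was lost without Landrace high 2 or 3 or Duroc high 1, 3, 5 or 6 (adjusted p 0.0516 to 0.0723). BCO2 did not overlap between the breeds within either DFI level, although the highest Duroc boar with high DFI exceeded the lowest Landrace boar with low DFI.

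ZMYND12, CCDC81, CEP295 and CCT6B were also higher in Landrace. ZMYND12, a zinc finger protein, was at 94.0, 69.4, 139 and 103 CPM in Landrace and at 33.3, 36.8 and 45.5 CPM in Duroc (log2 fold change −1.42 ± 0.16, adjusted p = 0.00106), and in the fit with the number series at −2.18 (adjusted p = 0.00730). CCDC81 was at 105 to 130 CPM against 63.7 to 73.9 CPM (−0.70 ± 0.08, adjusted p = 0.00116), and CEP295, a centriole protein, at 124 to 147 CPM against 84.8 to 97.6 CPM (−0.57 ± 0.07, adjusted p = 0.00160). CCT6B, a chaperonin subunit of testis, was at 157 to 179 CPM against 113 to 129 CPM (−0.48 ± 0.06, adjusted p = 0.00195). No boar with high DFI overlapped the other breed for these 4 genes.

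DENND11, a DENN domain protein, was at 13, 6.27, 8.43 and 12 CPM in Landrace and at 0.868, 1.31 and 2.53 CPM in Duroc (log2 fold change −2.71 ± 0.32, adjusted p = 0.00149). At low DFI 1 Landrace boar was at 0.828 CPM and another at 1.95 CPM, both within the Duroc range. DENND11 was chosen among genes without overlap at high DFI, a condition not set at low DFI. The test of the difference between the DFI levels did not pass for DENND11 (edgeR quasi-likelihood, unadjusted p = 0.520). OSBPL3, an oxysterol-binding protein relative, was at 7.15 to 8.69 CPM against 2.84 to 4.34 CPM (−1.07 ± 0.13, adjusted p = 0.00195). PLXNA2, a semaphorin receptor, was at 17.6 to 18.7 CPM against 10 to 14.9 CPM (−0.70, adjusted p = 0.0112), and TBC1D7, a subunit of the tuberous sclerosis complex, at 19.8 to 24.8 CPM against 14.8 to 17.1 CPM (−0.43, adjusted p = 0.0175). PLXNA2, TBC1D7, BCO2 and ZMYND12 were among the 10 genes that stayed higher in Landrace in all 3 fits named above.

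Of the genes without a symbol, ENSSSCG00000007589 was at 287, 294, 277 and 257 CPM in Landrace and at 117, 127 and 153 CPM in Duroc (log2 fold change −1.10 ± 0.08, adjusted p = 2.66e-05), and it separated all 20 boars. ENSSSCG00000018063 was at 323, 454, 340 and 412 CPM against 50.7, 72.5 and 101 CPM (−2.40 ± 0.17, adjusted p = 2.66e-05). For the latter the low DFI boars differed from this picture: the 2 Landrace boars with 2-digit numbers were at 207 and 323 CPM and the 3 with 6-digit numbers at 44.3, 167 and 42.4 CPM, and with the number series in the fit its difference was −0.76 (adjusted p = 0.674). The identifier of ENSSSCG00000018063 is close to those of the mitochondrially encoded ND1 (ENSSSCG00000018065) and ND2 (ENSSSCG00000018069). This gene was not counted among the mitochondrially encoded genes below, and where it lies was not tested.

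The mitochondrially encoded genes were lower in Duroc as a group. These 13 genes code for subunits of the respiratory chain and of ATP synthase, and 10 of the 13 were called, all 10 higher in Landrace, where 1.77% of all tested genes were. The 13 genes lie on the same mitochondrial genome, and whether they vary independently of each other was not tested. The 10 calls can therefore not be read as 10 independent results. All 13 had a log2 fold change below 0, with a median of −0.63 (−0.64 and −0.59 under the other scalings) and a range from −1.05 for ND5 to −0.22 for COX3. COX1, a catalytic subunit of cytochrome c oxidase, was at 9410, 8490, 6780 and 9620 CPM in Landrace and at 4580, 5260 and 5920 CPM in Duroc (−0.69 ± 0.11, adjusted p = 0.00685). COX2 of the same enzyme was at 2660, 3010, 2140 and 2690 CPM against 1410, 1740 and 1780 CPM (−0.63 ± 0.10, adjusted p = 0.00620). ND1 and ND2, subunits of complex I, were lower in Duroc too (−0.66, adjusted p = 0.0123, and −0.76, adjusted p = 0.00655). No Duroc boar reached the lowest Landrace boar for any of these 4 genes.

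The share of all counts on the mitochondrial genes was 2.83%, 2.69%, 2.00% and 2.69% in the Landrace boars and 1.35%, 1.75% and 1.92% in Duroc (lowest, median, highest), again without overlap (p = 0.00952 by exact permutation, the lowest possible with these group sizes, adjusted p = 0.0857). The difference was smaller at low DFI, where 0 of the 13 genes were called and the median was −0.36, and −0.25 among boars with 6-digit numbers. With the number series in the fit the median was −0.38 and 0 were called. By the test of the difference between the DFI levels, 0 of the 13 genes reached an unadjusted p under 0.05. Without the boars Landrace high 2 and Duroc high 4, 6 of the 13 were called, and with DFI as a covariate 0 were. Per the labels every RNA sample passed one integrity minimum, but no value per boar was given, and the part of RNA quality in this difference was not tested.

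**Figure D3:**
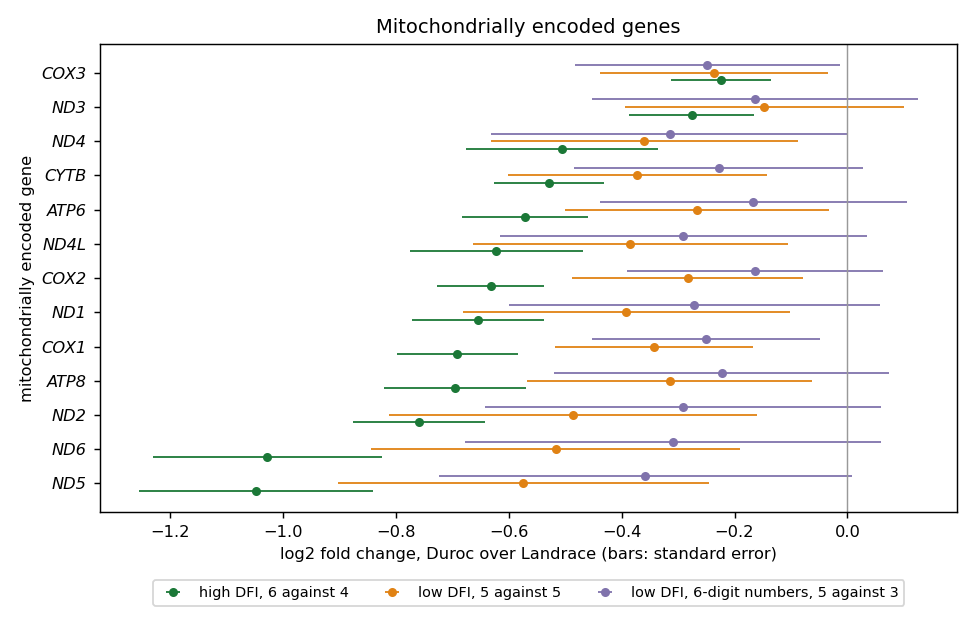
Log2 fold change of Duroc over Landrace with its standard error for the 13 mitochondrially encoded genes, at high DFI (green), at low DFI (orange) and at low DFI among boars with 6-digit numbers (purple). All points lie below 0, and the high DFI values of all genes but COX3 are lower than those of the low DFI comparison.

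Of 24 tested meiosis genes 3 were called, 2 higher in Duroc and 1 higher in Landrace, where 3.69% of all tested genes were called, and the median of the list was −0.06. SPO11, which makes the DNA double-strand breaks of meiosis, was at 18.7, 17.8, 19.6 and 19.1 CPM in Landrace and at 29.8, 31.9 and 33.0 CPM in Duroc (log2 fold change 0.75 ± 0.07, adjusted p = 0.000360). Both groups were tight and far apart. At low DFI SPO11 ranged from 6.67 to 22.9 CPM in Landrace, with 3 boars under 10 CPM, and from 29.9 to 40.1 CPM in Duroc, and it separated all 20 boars.

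DMC1, the recombinase that acts on these breaks, was at 26.7, 38.9, 39.8 and 33.2 CPM against 44.6, 47.1 and 54.1 CPM (0.49 ± 0.11, adjusted p = 0.0351), and HORMAD2 of the chromosome axis was at 55.6 to 63.2 CPM against 47.2 to 54.6 CPM (−0.27 ± 0.07, adjusted p = 0.0497). The call of DMC1 was lost without Landrace high 1 or 4 or any Duroc boar but Duroc high 4 (adjusted p 0.0557 to 0.0853), and that of HORMAD2 on leaving out any of the 10 boars (0.0534 to 0.105). SPATA22, a partner in meiotic recombination, was at 35.9, 41.6, 41.2 and 39.3 CPM against 30.4 to 35.2 CPM and did not pass (adjusted p = 0.0682).

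Of 9 tested spermatogonia markers the edgeR quasi-likelihood test called 1, KIT, and 6 of the other 8 had a value above 0. Over all tested genes that test called 3.69%. RET, the receptor of a Sertoli cell growth factor on spermatogonial stem cells, had a log2 fold change of 0.61 (adjusted p = 0.103, but 0.0431 with DESeq2). Of the 36 spermatid genes and the 17 genes of sperm chromatin packaging 0 were called by that test and 1 of each list by DESeq2, with medians of −0.04 and 0.00 and ranges from −0.35 to 0.24 and from −0.17 to 0.33. The edgeR test gave 3 and 2 of them an unadjusted p under 0.05, and without Landrace high 2 and Duroc high 4 it called 1 spermatid gene. Of 34 tested DNA repair genes the quasi-likelihood test called 0 and gave 8 an unadjusted p under 0.05, while DESeq2 called 4. RAD50 of the break-sensing complex had the smallest p of that list (−0.31, adjusted p = 0.0604).

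Among markers of somatic cells 1 of 12 tested Sertoli cell genes was called, against 3.69% of all tested genes. GATA4, a transcription factor of Sertoli and Leydig cells, was at 21.3, 28.2, 24.4 and 24.1 CPM in Landrace and at 29.8, 37.9 and 42.0 CPM in Duroc (log2 fold change 0.60 ± 0.11, adjusted p = 0.0115). Of the other 11 genes 10 had a value above 0, and the median of the list was 0.11. CLU, an abundant Sertoli cell product, was at 1430, 1570, 1360 and 1870 CPM against 1860, 1960 and 3250 CPM and did not pass (adjusted p = 0.129), with its highest value in Duroc high 4. The summed level of the Sertoli cell list was 1930 to 2530 CPM in Landrace and 2410 to 4160 CPM in Duroc (p = 0.0381 by exact permutation, adjusted p = 0.107). Most of this sum was CLU alone in every boar, 1360 to 1870 CPM in Landrace and 1860 to 3250 CPM in Duroc.

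Of 16 Leydig cell steroidogenesis genes the edgeR quasi-likelihood test called 0, against 3.69% of all tested genes, and gave 4 an unadjusted p under 0.05. The likelihood ratio test called 2 and DESeq2 called 1. At high DFI 13 of the 16 had a value below 0 and the median was −0.32, but the median was 0.115 at low DFI and 0.079 among low DFI boars with 6-digit numbers. SRD5A2, a steroid 5-alpha-reductase, was at 1.27, 1.02, 0.988 and 0.997 CPM in Landrace and at 1.40 to 1.67 CPM in Duroc (adjusted p = 0.0674). CYB5A, the cytochrome b5 that boosts androgen synthesis, was at 1270, 3660, 2460 and 1410 CPM against 1040, 1300 and 1710 CPM (adjusted p = 0.144), and FDXR, which feeds electrons to the steroid-making enzymes of mitochondria, at 60.0, 123, 82.1 and 56.9 CPM against 55.4 to 67.2 CPM (adjusted p = 0.227). The highest value of CYB5A and of FDXR was in Landrace high 2. TSPO, an outer mitochondrial membrane protein, had a value above 0 (log2 fold change 0.89, adjusted p = 0.119). TSPO was the 1 gene called by DESeq2 (adjusted p = 0.0458). The 2 genes called by the likelihood ratio test were TSPO (adjusted p = 0.0467), higher in Duroc, and CYB5A (0.0336), lower in Duroc. The summed level of the list was 7030 to 18000 CPM in Landrace and 5260 to 9780 CPM in Duroc (p = 0.305 by exact permutation). STAR, HSD3B1 and the aromatase genes of the list were not matched to a symbol and were not analysed here.

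Of 30 extracellular matrix genes, 24 had a log2 fold change above 0 and the median was 0.31, but 1 was called, against 3.69% of all tested genes, and 8 had an unadjusted p under 0.05. The likelihood ratio test called 5 and DESeq2 called 6 of them, and the median was 0.22 at low DFI and 0.03 in the fit with the number series. COL14A1, a collagen that binds to fibrils, was at 7.40, 6.27, 7.61 and 7.90 CPM in Landrace and at 9.36, 11.1 and 15.3 CPM in Duroc (log2 fold change 0.68 ± 0.15, adjusted p = 0.0293), and its call was lost on leaving out any Landrace boar or Duroc high 1 or 3 (adjusted p 0.0524 to 0.0638). COL6A3 of collagen VI had 0.60 (adjusted p = 0.0548). CTSZ, a lysosomal cathepsin and the 1 call of 21 matrix proteases and inhibitors, was at 13.6, 22.8, 22.6 and 18.2 CPM against 27.2, 30.8 and 34.2 CPM (0.66 ± 0.14, adjusted p = 0.0238, but 0.0637 without Landrace high 4 and 0.0523 without Duroc high 6). The summed level of the matrix list was 1080 to 1430 CPM in Landrace and 1250 to 1680 CPM in Duroc. Without the boars Landrace high 2 and Duroc high 4, 3 genes of the list were called.

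Of 17 tested interferon-stimulated genes, 13 had a log2 fold change below 0 and the median was −0.41, with 10 at an unadjusted p under 0.05, but the 1 called gene was higher in Duroc, against 3.69% called of all tested genes. HERC5, which attaches the ubiquitin-like ISG15 to proteins, was at 29.2, 39.9, 33.9 and 34.8 CPM in Landrace and at 40.6, 46.1 and 49.5 CPM in Duroc (log2 fold change 0.41 ± 0.09, adjusted p = 0.0330). Its call was lost on leaving out any boar but Landrace high 2 or Duroc high 6 (adjusted p 0.0529 to 0.0720), and with the number series the difference was −0.18. IFIT1, an interferon-induced protein that binds viral RNA, was at 2.32, 6.17, 0.896 and 1.05 CPM against 0.712, 0.898 and 1.54 CPM and did not pass (adjusted p = 0.163). Its highest value was in Landrace high 2. The low DFI median of the list was 0.08.

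The quasi-likelihood test called no gene of the peritubular, endothelial, macrophage and lymphocyte lists, against 3.69% of all tested genes. It called 0 of 9 peritubular muscle, 0 of 7 endothelial, 0 of 6 macrophage and 0 of 4 lymphocyte genes, with 2, 0, 0 and 1 at an unadjusted p under 0.05. The summed levels of these lists overlapped between the breeds. FCGR1A, the immunoglobulin G receptor called higher in Duroc above, was in none of these lists. The macrophage list summed to 62.3 to 89.3 CPM in Landrace and 50.7 to 89.2 CPM in Duroc, and the lymphocyte list to 17.3 to 27.2 and 12.6 to 19.7 CPM. Further lists without a call were the 22 antioxidant enzymes (4 at an unadjusted p under 0.05), 14 complement genes (2), 14 immediate early and heat shock genes (0), 5 genes of steroid and skatole conjugation (0) and 4 antigen presentation genes (1). DESeq2 called 1 lymphocyte gene and 1 antioxidant gene, and the likelihood ratio test 1 antioxidant gene. Many symbols of these lists were not matched to a gene and were not analysed here.

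**Figure D4:**
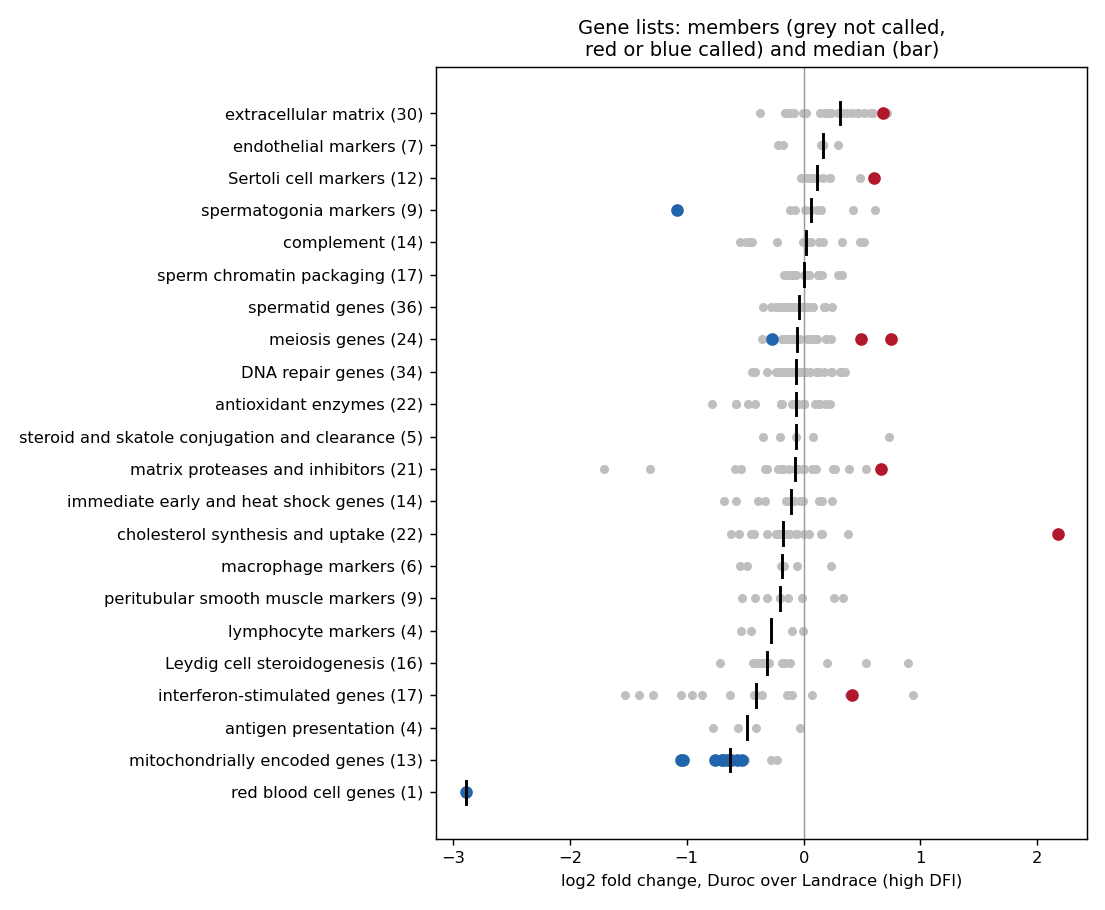
Log2 fold change of Duroc over Landrace at high DFI for each tested member of 22 gene lists, with the number of tested members in brackets; grey points were not called, red points were called higher in Duroc, blue points were called higher in Landrace, and the bar is the median. The mitochondrially encoded genes are the list with the most calls, 10 of 13, all blue.

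The 10 low DFI boars, none of which entered the high DFI test, gave 524 called genes (3.54% of those tested). Of the 546 genes called at high DFI, 542 had the same sign at low DFI (99.3%, against 73.9% of all tested genes), and 408 also had an unadjusted p under 0.05 in that direction. Both comparisons called 190 genes, which is 34.8% of the high DFI calls and 36.3% of the low DFI calls, 101 higher in Duroc and 89 higher in Landrace, and 0 with opposite signs. Among called genes, 140 separated all 11 Duroc from all 9 Landrace boars, as did 186 of all tested genes (1.26%). The test of the difference between the breed contrasts at high and low DFI called 0 genes (edgeR quasi-likelihood, smallest adjusted p = 0.326). It gave 47 of the 546 an unadjusted p under 0.05, among them CRTAC1 with 0.00318 and PPARG, whose difference was larger at low DFI, with 0.00237. By the likelihood ratio test 2 genes differed between the contrasts.

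**Figure D5:**
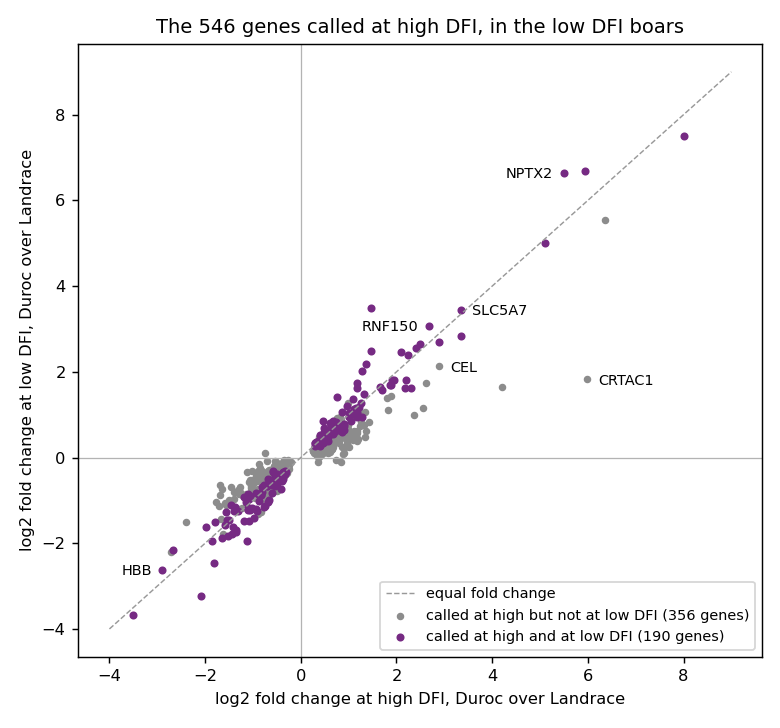
Log2 fold change of Duroc over Landrace at high DFI (horizontal axis) and at low DFI (vertical axis) for the 546 genes called at high DFI; purple points are the 190 genes called in both, grey points the others, and the dashed line marks equal values. Nearly all points lie in the lower left or the upper right, and CRTAC1 lies far below the line.

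The number series can be examined at low DFI alone, where 3 of the 5 Landrace boars carried 6-digit numbers as all Duroc boars did. Among these 5 Landrace boars DFI was 1.5% and 1.7% with 2-digit numbers and 0.62% to 0.82% with 6-digit numbers. A series difference among them can therefore not be told apart from one of DFI. Those 3 against the 5 Duroc boars gave 246 calls (1.66%), and 525 of the 546 high DFI calls kept their sign (96.2%). Both the high and this comparison called 103 genes, with 0 of opposite sign. In the fit of all 20 boars with the number series as a term, which rests on the 2 low DFI Landrace boars with 2-digit numbers to separate it from breed, 38 genes were called (0.257%), 30 of them among the 546, and 520 of the 546 kept their sign. Within the low DFI Landrace boars themselves, 2 boars with 2-digit against 3 with 6-digit numbers, 1 gene was called and 1409 had an unadjusted p under 0.05. How much of each high DFI difference belongs to the series cannot be told apart from breed within the high DFI boars.

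Called genes lay on every chromosome that held tested genes. By the gene order of the RefSeq annotation of the Sscrofa11.1 assembly, used for order alone, 322 of the called genes had a place by symbol, and the share of called genes per nuclear chromosome ran from 1.90% to 6.07%. In 15 pairs of neighbouring tested nuclear genes both were called, and 12 of these pairs had the same sign (80%, against 54.6% of all neighbouring pairs). NPTX2 and its neighbour TMEM130 (log2 fold change 0.94) were both higher in Duroc. VILL and its neighbour PLCD1, a phospholipase C, had opposite signs (−1.99 and 0.64), and the call of PLCD1 was lost without Landrace high 1, 3 or 4 or Duroc high 4 or 6 (adjusted p 0.0514 to 0.0764). Counting ignored the strand, so reads of overlapping or antisense neighbours cannot be told apart.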

How the data were processed

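Each of the 20 boars gave 1 unstranded RNA library from testis, read as single-end reads. Per the labels and the methods of the study, the authors checked the reads with FastQC 0.10.1, aligned them to the pig genome with TopHat2 2.0.12, sorted the alignments with SAMtools 1.1 and counted reads per gene with HTSeq without regard to strand, and the deposited values are these raw counts. The lowest value in each file is 1, and whether 0 was replaced by 1 or 1 was added is not given in the sources used here. The authors' own test used edgeR 3.2.4.

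Here the counts of the 21306 genes listed for both breeds were used, and those over 1 CPM in 5 or more of the 10 libraries with high DFI were tested in R 4.3.3 with the edgeR 4.0.16 quasi-likelihood test, scaling with the trimmed mean of M values and breed as the only term. All p-values were adjusted over all genes tested (Benjamini-Hochberg, 0.05), and standard errors were derived from the fold change and its F statistic. These standard errors give the uncertainty of the fitted breed difference, which rests on the variation between boars and the group sizes. They are not the spread between boars itself. Single values were compared by exact permutation. Further fits took the low DFI boars, those with 6-digit numbers, all 20 boars with the number series, and the difference between DFI levels. Alternatives used DESeq2 1.42.0, limma 3.58.1, other scalings and filters, and leaving out boars. Gene symbols came from the supplied name table (11655 of 21306 genes).

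The genes compared, the lists and the tests were chosen with earlier results of these data known. Genes were named by rule: the 10 with the smallest p per direction among called genes with a symbol and no overlap, the 5 with the largest fold change per direction at a mean of at least 5 CPM, up to 4 per list, 2 without a symbol per direction, and up to 8 per direction called in 3 fits. Not every gene the rule selects is described, and some are not reported here. On simulated counts with 50 genes changed at each size, the test recovered 17 at a log2 change of 0.5, 42 at 1, 49 at 2 and 50 at 3, with 6 false calls among 164. Libraries of the same group differed from each other by far more than sampling noise (chi-square per degree of freedom 17.2 to 109), so each was counted as a sample of its own.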

Additional observations from a re-analysis of the deposited data

Results flagged for a closer look

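Within-group gaps were tested with Dixon's ratio in groups of 4 to 6 boars, and 18 of 186 groups exceeded its 95% limit, where chance gives about 1 in 20. No explanation was tested for any of them.

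Duroc high 4 stood apart in cell type lists, with a summed level of 4159.3 CPM of Sertoli cell markers (others 2410 to 2732), 3748.1 CPM of complement genes (2240 to 2550.6), 18859 CPM of spermatid genes (22972 to 25388) and 2331.7 CPM of cholesterol genes (3820.1 to 4667.7). CLU, a member of the Sertoli cell and complement lists, was at 3250 CPM in this boar against 1860 to 2100 CPM, and PLXNA2 at 14.9 CPM against 10 to 11.7 CPM. Duroc high 5 had the lowest NPTX2 (19.9 CPM, others 38 to 48.7), the lowest COX2 (1410 CPM, others 1710 to 1780), the lowest sum of mitochondrially encoded genes (13495 CPM, others 16658 to 18227) and the highest VILL (7.27 CPM, others 4.99 to 5.71). BCO2 was at 5.33 CPM in Duroc high 2 against 1.91 to 2.82 CPM.

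Among Landrace boars KIT was at 47.2 CPM in Landrace high 3 against 26.1 to 29.4 CPM, and the mitochondrial share of counts there was 1.996% against 2.691% to 2.833%. CCDC81 was at 130 CPM in Landrace high 4 against 105 to 106 CPM. SRD5A2 was at 1.27 CPM in Landrace high 1 against 0.988 to 1.02 CPM, and DNA repair genes summed to 1735.7 CPM there against 1690.2 to 1694.9 CPM. In the low DFI groups, ENSSSCG00000024011 was at 0.0946 CPM in Landrace low 2 (4 counts) against 0.0221 to 0.0392 CPM, and ENSSSCG00000023383 at 0.0544 CPM in Duroc low 5 (2 counts) against 5.44 to 5.71 CPM.

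Genes listed for one breed only were in no comparison. The Duroc files listed 411 such genes, 3 of them above 10 counts in a high DFI boar: TIFA, an adaptor of inflammatory signalling, with up to 40 counts, ENSSSCG00000030298 with up to 110 and ENSSSCG00000031069 with up to 12. The highest count among the 342 genes listed for Landrace only was 8.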

How the results depend on the processing

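The 546 calls at high DFI became 1318 with DESeq2, 838 with all 20 boars in 1 fit, 115 at an adjusted p under 0.01, 31 against a fold of 1.5, 35 with DFI as a covariate and 38 with the number series. Leaving out 1 boar gave 314 (without Duroc high 3) to 442 (without Duroc high 4), and moved by over 1.5 times also without Landrace high 1 (348) or 4 (362) or Duroc high 1 (320), 5 (349) or 6 (328). The other 10 settings, among them limma (588), total counts (602) and no filter (516), stayed within 1.5 times. At low DFI the 524 calls became 812 by the likelihood ratio test and 326 to 606 on leaving out 1 boar (Landrace low 5 and 3), with 340 without Landrace low 1 or Duroc low 1. By the same test the 246 calls among 6-digit boars became 542, the difference between DFI levels 2 in place of 0, and the series within Landrace 83 in place of 1. In the fit with the number series CEL (−1.005) and HERC5 (−0.178) changed direction, and 43 of 56 described called genes lost their call, these 2 included, as did 41 with DFI as a covariate, which differs between the breeds. The cause was not tested. No paired analysis was possible because the groups hold different boars and the labels give no matching between them. The shallowest library was Landrace high 1 with 18086448 counts, and changes near 0.5 on the log2 scale were often missed in simulated counts.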

Other observations

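TIFA and ENSSSCG00000030298, listed for Duroc only, varied among the 6 Duroc boars with high DFI. TIFA held 40, 2, 13, 1, 29 and 19 counts in Duroc high 1 to 6, and ENSSSCG00000030298 held 56, 1, 110, 4, 2 and 57 counts. The Landrace files used here list neither gene, so no fold change was computed.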
